A study of Mus musculus with 11 samples.

Results

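The interaction of the 2 knockouts was measured in 11 libraries that form a 2 x 2 design, with or without loss of NF186 and with or without loss of AnkG. For each gene it is the log2 level in the double knockout (DKO), minus that in each single knockout (NFKO and AnkGKO), plus that in control. A value of 0 means that the log2 effects of the single knockouts add up in DKO, and a value below 0 means that DKO lies below that sum. Of 22609 genes listed, 17557 with at least 10 counts in total were tested. A gene was called at an adjusted p-value under 0.05 (quasi-likelihood F-test of edgeR, adjusted over all genes tested by the Benjamini-Hochberg method) and an absolute log2 interaction of at least 0.6. By this rule 93 genes were called, 37 with an interaction above 0 and 56 below 0, which is 0.530% of the genes tested (0.211% above and 0.319% below).

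The samples are mouse cerebellar hemispheres by their labels, from untreated littermates of mixed sex. Control mice carried floxed alleles without Cre (n = 3). The study's methods give them as NfascFx/Fx;AnkGFx/Fx in one place and as single or double floxed in another. The single knockouts were Pcp2-Cre;NfascFx/Fx (NFKO, n = 3) and Pcp2-Cre;AnkGFx/Fx (AnkGKO, n = 2). The DKO mice (n = 3) had the genotype Pcp2-Cre;NfascFx/Fx;AnkGFx/Fx. The labels give the age as P30 in one field and P32 in another, and the strain as C57BL/6J in one field and as a mixed C57BL/6J;129 background in another. Pcp2-Cre is meant to delete in Purkinje cells and to leave both genes in other cells of the tissue, which was not tested here. Controls lacked Cre while all 3 mutant groups carried it, so an effect of Cre, or of either single floxed line, cannot be told apart from the interaction.

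Neurofascin 186 (NF186, from Nfasc) is an adhesion molecule of the immunoglobulin superfamily, and Ankyrin G (AnkG, from Ank3) is the cytoskeletal scaffold that holds it, sodium channels and βIV spectrin at the axon initial segment (AIS). The AIS is the stretch of axon where action potentials start, and in Purkinje cells it is wrapped by basket cell terminals. An interaction test asks whether loss of one of these proteins has the same effect on RNA when the other is already missing.

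Each library held between 38890851 and 55822361 counts assigned to genes. Ank3 stood at 353 to 375 CPM (counts scaled to a common library size by edgeR's trimmed mean of M values, TMM) in control, 385 to 407 in NFKO, 156 to 200 in AnkGKO and 160 to 185 in DKO. Its log2 interaction was -0.16 (SE 0.13, adjusted p = 0.749, edgeR), and its sign turned without AnkGKO replicate 2 (0.04). Nfasc in NFKO (622 to 701 CPM) overlapped control (661 to 718 CPM), so its level does not check those labels. Its log2 interaction was -0.42 (SE 0.14, adjusted p = 0.310, edgeR), and without AnkGKO replicate 2, which held 953 CPM against 717 in the other AnkGKO library, it was the smallest in size at -0.204. Markers of the labelled tissue were uneven. The Purkinje cell gene Pcp2 was under 1 CPM in 7 of the 11 libraries and the granule cell gene Gabra6 in 5, with control 1 and NFKO 1 the highest (26.3 and 28.3 CPM of Pcp2). In AnkGKO and DKO, where Ank3 was lower, Pcp2 was at 0.103 to 0.374 CPM. The cells in which Ank3 was lost were not tested. The whole list of 27 Purkinje cell markers summed to between 4010 and 6030 CPM and that of 14 granule cell markers to between 485 and 1250 CPM. Caudal Hox genes, which the cerebellum does not normally express, summed to between 588 and 764 CPM in every library, and no Hox gene of 17 tested was called in the interaction.

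Xist, the RNA of the inactive X chromosome in females, differed between libraries in a way that runs along this contrast. It stood at 464, 598 and 0.428 CPM in control, between 0.344 and 1.39 CPM in all 5 single-knockout libraries, and at 28.4, 459 and 469 CPM in DKO. No DKO library was as low as the single knockouts, so the contrast could not be formed within libraries of one Xist class. With Xist as a covariate 19 genes were called, 15 of them among the 93 (Cadps, Cd47, Cml5, Crb1, Cwc22, Dlk2, Gm5148, H2-Bl, Mut, Rnps1, Rps3a, Serpina3n, Slc13a3, Tifa and Tpm3). The other calls described here were lost in that fit. Control 3, whose Xist was as low as in the single knockouts, lay nearer to the other 2 controls than to the single knockouts in 92 of the 93 called genes (distance of log2 CPM after adding 0.1). That position is a description, since the called genes were chosen with control 3 in its group. Beyond the covariate, the part of sex in the interaction was not tested.

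In most called genes DKO lay near the control level. In 78 of the 93, DKO was within 0.6 of control on the log2 scale. The median absolute log2 difference from control over the called genes was 0.858 in NFKO, 0.588 in AnkGKO and 0.131 in DKO, against 0.0944, 0.104 and 0.113 over all genes tested. These 3 differences share the same controls, and the choice of genes by the interaction favours such a pattern, so the medians describe it and do not test it. By the 0.6 limit, 20 genes differed from control in the same direction in both single knockouts only, 23 in NFKO only, 12 in AnkGKO only and 23 in none of the 3 mutant groups. DKO lay past 0.6 in the remaining 15. In 31 called genes all 5 single-knockout libraries lay above all 6 control and DKO libraries, and in 22 all lay below. Over all genes tested such a separation occurred in 0.797% (above) and 0.655% (below). These are bulk samples, in which fewer cells of a type and less RNA per cell cannot be told apart.

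**Figure D1:**
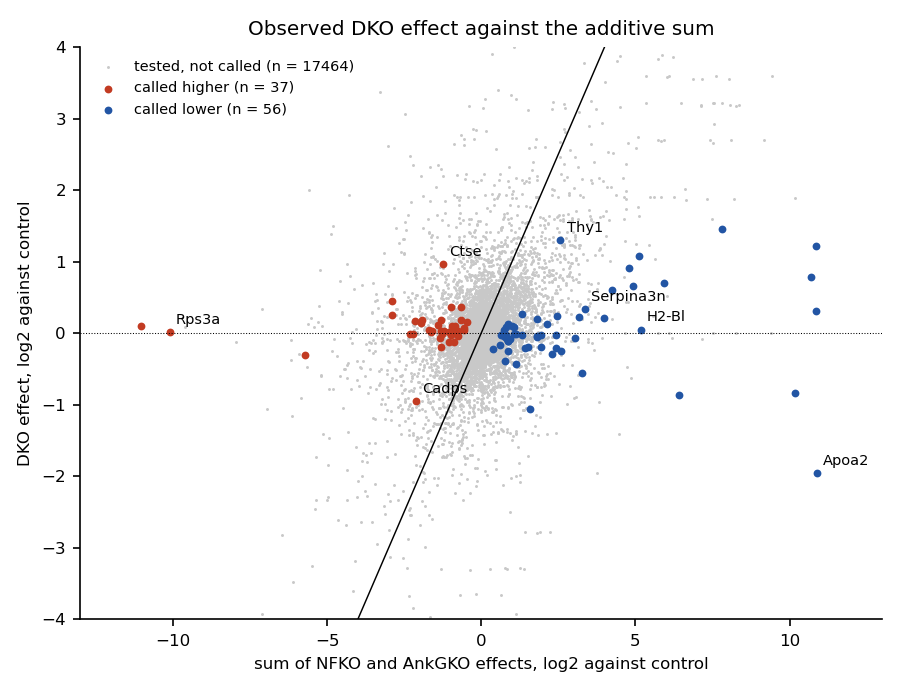
Log2 difference from control in DKO (y axis) against the sum of the log2 differences in NFKO and AnkGKO (x axis) for each gene tested. The solid line marks additivity and the dotted line the control level. Called genes, 37 above and 56 below 0, lie along the dotted line except for a few such as Thy1 and Cadps. Another 56 genes lie outside the axes and none of them was called.

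In one group of called genes both single knockouts were higher than control and DKO was near control. Serpina3n, a secreted serine protease inhibitor known from reactive astrocytes, was at 73.0, 75.7 and 70.4 CPM in control. It was at 237, 217 and 264 CPM in NFKO and at 270 and 184 CPM in AnkGKO. In DKO it was at 103, 89.7 and 84.2 CPM. All 5 single-knockout libraries were above all 6 others. The log2 interaction was -3.01 (SE 0.20, 95% interval -3.44 to -2.58, adjusted p = 6.64e-05, edgeR), and the DKO mean of 92.2 CPM stood against 744 CPM if the log2 effects had added up. Its call was kept in all 21 alternative fits on the log2 scale (11 that left out a library and 10 others), with an adjusted p of 0.0412 with Xist as a covariate.

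A pair of neighbours of Serpina3n on chromosome 12 moved in the same way from near 0. Serpina3f was at 0.0403 to 0.338 CPM in control, 7.43 to 8.79 in NFKO, 5.11 and 10.3 in AnkGKO and 0.0934 to 0.467 in DKO. Serpina3m was at 0.0604 to 0.442 CPM in control, 8.22 to 8.97 in NFKO, 4.93 and 10.6 in AnkGKO and 0 to 0.397 in DKO. In both genes the single-knockout libraries were above every control and DKO library, and the adjusted p of the interaction was 0.000826 and 0.00935 (edgeR). With Xist as a covariate both calls were lost (adjusted p = 0.232 and 0.518), and that of Serpina3m also without control 1 and NFKO 1 together (0.0988). With DKO 3 at 0, the fitted log2 of Serpina3m (-11.01) depends on the prior count. Of the 7 Serpina3 genes tested, these 3 were called, all below 0, and the list's median was -2.33. The list was chosen with these results known. Serpina3g, Serpina3i and Serpina3h were not called (log2 interaction 0.99, 2.63 and -1.01), nor was Serpina3c (-2.33, adjusted p = 0.301, edgeR).

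Further genes of this group lie in or are named for the major histocompatibility complex (MHC). H2-Bl, a class I gene, was at 2.44, 1.73 and 2.74 CPM in control and at 15.9, 14 and 21.2 CPM in NFKO. It was at 11.1 and 11.2 CPM in AnkGKO, and at 2.92, 1.56 and 2.62 CPM in DKO. The single knockouts did not overlap the others, and the log2 interaction was -5.12 (SE 0.36, adjusted p = 6.64e-05, edgeR). H2-T24 had a log2 interaction of -2.59 (SE 0.31) and A930015D03Rik, which overlaps it on the other strand, one of -3.63 (SE 0.46). Dlk2, a membrane protein with EGF repeats related to Notch ligands and also on chromosome 17, was at 4.39 to 6.34 CPM in control, 13.6 to 18.4 in NFKO, 9.49 and 9.62 in AnkGKO and 3.92 to 5.30 in DKO (log2 interaction -2.64, SE 0.26, adjusted p = 0.000556, edgeR). H2-Bl and Dlk2 kept their calls in all 21 alternatives, while among these H2-T24 and A930015D03Rik lost theirs with Xist as a covariate (adjusted p = 0.242 and 0.342).

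Smaller differences of the same kind were measured in a metabolic and a trafficking gene. Mut, the mitochondrial methylmalonyl-CoA mutase, was at 57.3 to 59.0 CPM in control, 84.7 to 93.1 in NFKO, 77.8 and 79.2 in AnkGKO and 53.5 to 60.4 in DKO. Its log2 interaction was -1.08 (SE 0.09, adjusted p = 0.000194, edgeR) and was called in all 21 alternatives. Copa, a subunit of the COPI vesicle coat, had the interaction -0.68 (SE 0.08), with control and DKO libraries between 214 and 236 CPM and single-knockout libraries between 270 and 305 CPM. Its call was lost with Xist as a covariate (adjusted p = 0.292). Both genes thus showed separate levels at expression far above the counting floor.

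The mirror image, a loss in both single knockouts with DKO at control, was led by Rps3a, a protein of the small ribosomal subunit. Rps3a was at 21.2, 25.3 and 26.4 CPM in control and at 24.2, 22.8 and 26.4 CPM in DKO. It was at 1.91, 0.559 and 1.6 CPM in NFKO and at 0.371 and 0.413 CPM in AnkGKO. The single-knockout libraries were below every control and DKO library, and the log2 interaction was 10.12 (SE 0.57, 95% interval 8.84 to 11.40, adjusted p = 6.64e-05, edgeR). Of the 50-base words in its transcripts 38.5% also occur in another gene, so reads of Rps3a and its copies may not be separable and this value is uncertain. Gm5148, a predicted gene on the same chromosome, was at 3.15 to 3.55 CPM in control and 3.20 to 3.91 in DKO. It was at 0.0193 to 0.186 CPM in NFKO and 0 and 0.0825 in AnkGKO (adjusted p = 0.000186, edgeR). Counts this low leave the size of its fitted log2 interaction (11.13) to the prior count.

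Several genes lay lower in both single knockouts by smaller amounts, including a pair that acts in RNA processing. Exosc9, a subunit of the RNA exosome, was at 24.4 to 26.9 CPM in control, 16.2 to 18.8 in NFKO, 17.8 and 18.4 in AnkGKO and 25.0 to 26.7 in DKO (log2 interaction 1.05, SE 0.12, adjusted p = 0.00126, edgeR). Scnm1, a splicing factor first described as a modifier of a sodium channel gene, had a log2 interaction of 1.33 (SE 0.15, adjusted p = 0.00122, edgeR). Cd47, a surface protein that restrains phagocytosis, was at 53.9 to 65.1 CPM in control and 60.4 to 64.5 in DKO, against 41.2 to 47.9 in NFKO and 42.3 and 42.6 in AnkGKO. Its log2 interaction was 0.96 (SE 0.12, adjusted p = 0.00289, edgeR). Cyp39a1, an oxysterol hydroxylase, had one of 1.24 (SE 0.13). H2-M3, another class I gene of the MHC, moved opposite to H2-Bl, with a log2 interaction of 1.49 (SE 0.23, adjusted p = 0.0118, edgeR). Its call was lost without either AnkGKO library (adjusted p up to 0.0711) and with Xist as a covariate (0.125). Exosc9, Scnm1 and Cyp39a1 also lost theirs with Xist as a covariate (adjusted p = 0.208, 0.213 and 0.0511), while Cd47 kept its call in all 21 alternatives.

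**Figure D2:**
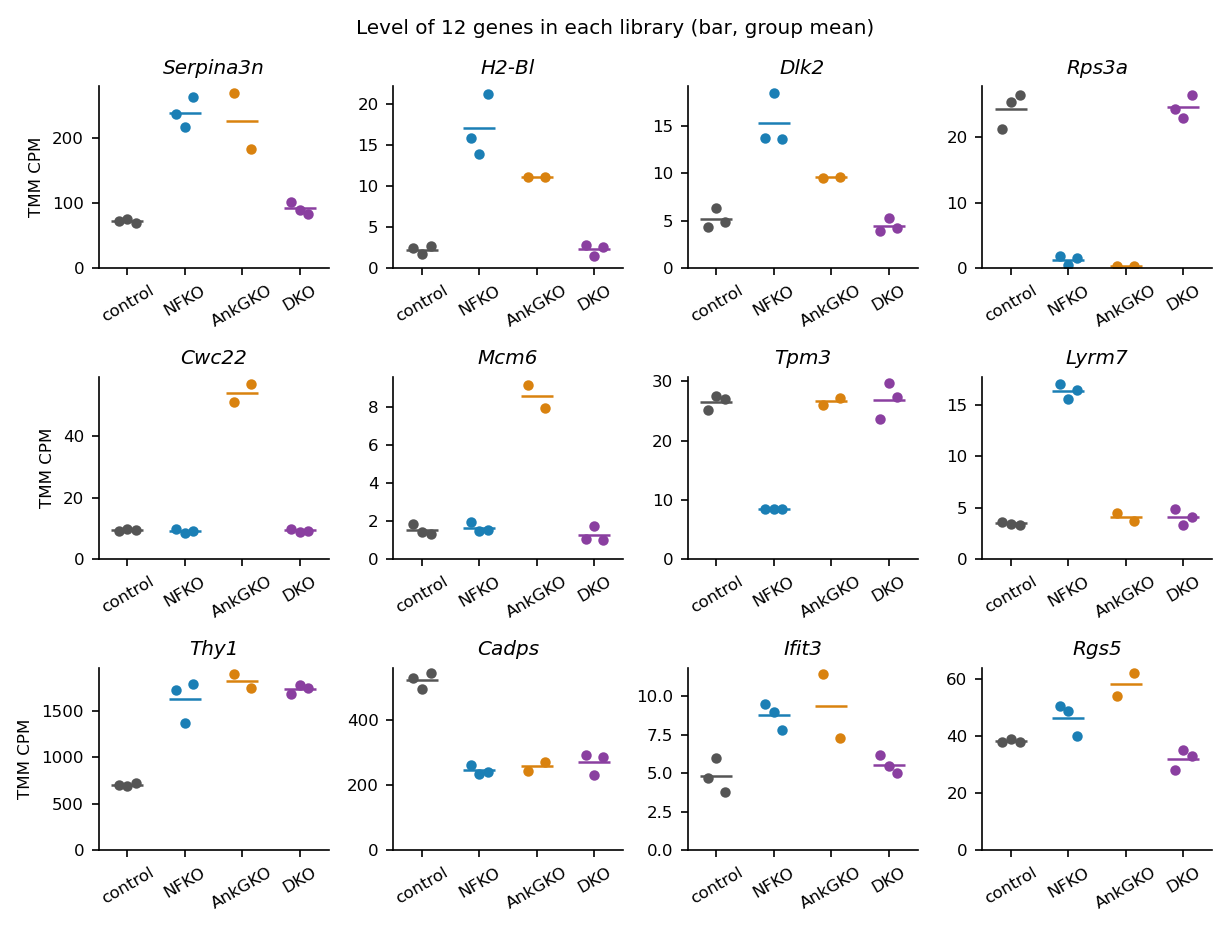
CPM of 12 called genes in each library (y axis, linear, from 0), by genotype (x axis), with bars at group means. Serpina3n, H2-Bl, Dlk2 and Ifit3 are high in both single knockouts and Rps3a is low in both. Cwc22 and Mcm6 stand out in AnkGKO, Tpm3 and Lyrm7 in NFKO, and Thy1 and Cadps differ from control by a like amount in all 3 mutant groups.

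In a further set NFKO departed most, with AnkGKO and DKO nearer to control. Tpm3, an actin-binding tropomyosin, was at 25.1, 27.5 and 27 CPM in control and at 8.59, 8.44 and 8.47 CPM in NFKO. It was at 26.1 and 27.1 CPM in AnkGKO and at 23.8, 29.7 and 27.3 CPM in DKO. The NFKO libraries alone were low, and the log2 interaction was 1.66 (SE 0.13, 95% interval 1.37 to 1.95, adjusted p = 0.000123, edgeR). Rnps1, a splicing and exon junction factor, was at 21.9 to 22.8 CPM in control, 9.90 to 11.6 in NFKO, 19.8 and 21.0 in AnkGKO and 22 to 23.7 in DKO. Its log2 interaction was 1.23 (SE 0.12, adjusted p = 0.000556, edgeR). In Tpm3 15.4% and in Rnps1 17.9% of 50-base words occur in another gene. Rps2, a ribosomal protein gene with 25.5% of such words, had a log2 interaction of 2.30 (SE 0.29).

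Alpk1 and Tifa, a kinase and its adaptor in the sensing of bacterial sugars, are neighbours on chromosome 3 and were both lower in NFKO, with AnkGKO between NFKO and control. Tifa was at 14.9 to 17.2 CPM in control, 6.72 to 8.23 in NFKO, 11.9 and 12.5 in AnkGKO and 16.1 to 18.5 in DKO (log2 interaction 1.51, SE 0.16, adjusted p = 0.000826, edgeR). Alpk1 was at 11 to 12.5 CPM in control, 5.05 to 5.26 in NFKO, 9.70 and 10.7 in AnkGKO and 10.5 to 11.6 in DKO (log2 interaction 1.28, SE 0.15). The difference between the 2 interactions is within the sum of their SEs. Wdfy1, a phosphoinositide-binding endosomal protein, had a log2 interaction of 2.20 (SE 0.22), with NFKO at 16.1 to 20.4 CPM and all other libraries between 47.5 and 74.9. Pkmyt1, a kinase that inhibits Cdk1, had one of 1.73 (SE 0.20).

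Other genes were higher in NFKO only. Lyrm7, an assembly factor of respiratory complex III, was at 3.38 to 3.67 CPM in control, 15.5 to 17 in NFKO, 3.69 and 4.48 in AnkGKO and 3.39 to 4.88 in DKO (log2 interaction -2.21, SE 0.21, adjusted p = 0.000488, edgeR). Glo1, which detoxifies methylglyoxal, was at 67.6 to 75.3 CPM in control, 137 to 155 in NFKO, 72.5 and 73.1 in AnkGKO and 73.3 to 77.7 in DKO (log2 interaction -0.97, SE 0.10, adjusted p = 0.00066, edgeR). Hddc3 had a log2 interaction of -1.88 (SE 0.23) and Cyb5r2, a cytochrome b5 reductase, one of -3.11 (SE 0.36). In Lyrm7, Glo1, Hddc3 and Cyb5r2 neither AnkGKO nor DKO differed from control by the test (smallest adjusted p = 0.681, edgeR), which does not show that they were equal. With Xist as a covariate Tpm3, Rnps1 and Tifa kept their calls, while Lyrm7, Glo1, Wdfy1 and Alpk1 did not.

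Cwc22, a spliceosome factor, had the smallest p-value of all and departed in AnkGKO alone. It was at 9.31, 9.91 and 9.64 CPM in control and at 9.81, 8.71 and 9.23 CPM in NFKO. It was at 51.0 and 56.7 CPM in AnkGKO, and at 9.99, 8.99 and 9.25 CPM in DKO. The AnkGKO libraries were far above the other 9, which overlapped one another. The log2 interaction was -2.46 (SE 0.12, 95% interval -2.73 to -2.19, adjusted p = 3.79e-06, edgeR), and between -2.53 and -2.38 when each library was left out in turn. Of its 50-base words 11.4% occur in another gene.

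In other genes AnkGKO departed most, a pattern that rests on its 2 libraries. Mcm6, a subunit of the replicative helicase, was at 1.33 to 1.87 CPM in control, 1.5 to 1.95 in NFKO, 7.95 and 9.16 in AnkGKO and 1.04 to 1.77 in DKO (log2 interaction -2.82, SE 0.34, adjusted p = 0.00184, edgeR). Crb1, an apical polarity protein, was at 1.87 to 2.31 CPM in control, 1.58 to 1.93 in NFKO, 0.454 and 0.478 in AnkGKO and 1.87 to 2.17 in DKO (log2 interaction 2.30, SE 0.28, adjusted p = 0.0022, edgeR). Both lie within 20 Mb of Nfasc, together with Ctse, Nav1 and Tnni1, which were also called. Gucy1a3, a subunit of soluble guanylate cyclase, had a log2 interaction of 0.93 (SE 0.12). Odc1, the first enzyme of polyamine synthesis, was at 10.3 to 11.6 CPM in control, 11.1 to 12.8 in NFKO, 23.8 and 26.5 in AnkGKO and 11.7 to 15.3 in DKO. Its log2 interaction was -1.07 (SE 0.17, adjusted p = 0.0132, edgeR), not called without AnkGKO replicate 2 (adjusted p = 0.0778). Ctse, the protease cathepsin E, fell in AnkGKO (0.369 and 0.536 CPM) but not in NFKO or DKO (3.39 to 4.34 CPM, against 1.56 to 2.66 in control). The log2 interaction of Ctse was 2.20 (SE 0.35, adjusted p = 0.0165, edgeR), not called without AnkGKO replicate 2 (adjusted p = 0.103). The calls of Nav1 and Tnni1 were lost in 4 and 6 of the 11 fits without 1 library, those without either AnkGKO library among them (adjusted p up to 0.0798 in both).

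In Thy1 and Cadps all 3 mutant groups differed from control in one direction and overlapped one another. Thy1, a GPI-anchored glycoprotein of neuronal surfaces, was at 703, 689 and 730 CPM in control. It was at 1726, 1371 and 1787 CPM in NFKO, at 1901 and 1749 CPM in AnkGKO and at 1685, 1783 and 1743 CPM in DKO. All 8 mutant libraries were above all 3 controls and the mutant groups overlapped. The log2 difference from control was 1.2 in NFKO, 1.37 in AnkGKO and 1.30 in DKO, which gave an interaction of -1.27 (SE 0.13, adjusted p = 0.000826, edgeR). This call was lost with Xist as a covariate (adjusted p = 0.148) and on the linear CPM scale (0.0694). Cadps, which primes dense-core vesicles for release, was at 529, 494 and 542 CPM in control and at 262, 234 and 241 CPM in NFKO. It was at 244 and 270 CPM in AnkGKO and at 292, 232 and 286 CPM in DKO. Its log2 difference was -1.09 in NFKO, -1.02 in AnkGKO and -0.95 in DKO, with an interaction of 1.16 (SE 0.13, adjusted p = 0.00144, edgeR), and its call was kept in both (adjusted p = 0.0453 and 0.00861). Only 4 genes (0.0228% of those tested) were called in DKO against control, and these 2 are the ones of them with a called interaction. Since the controls were the only mice without Cre, a shared effect of Pcp2-Cre cannot be told apart from an interaction in such genes.

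**Figure D3:**
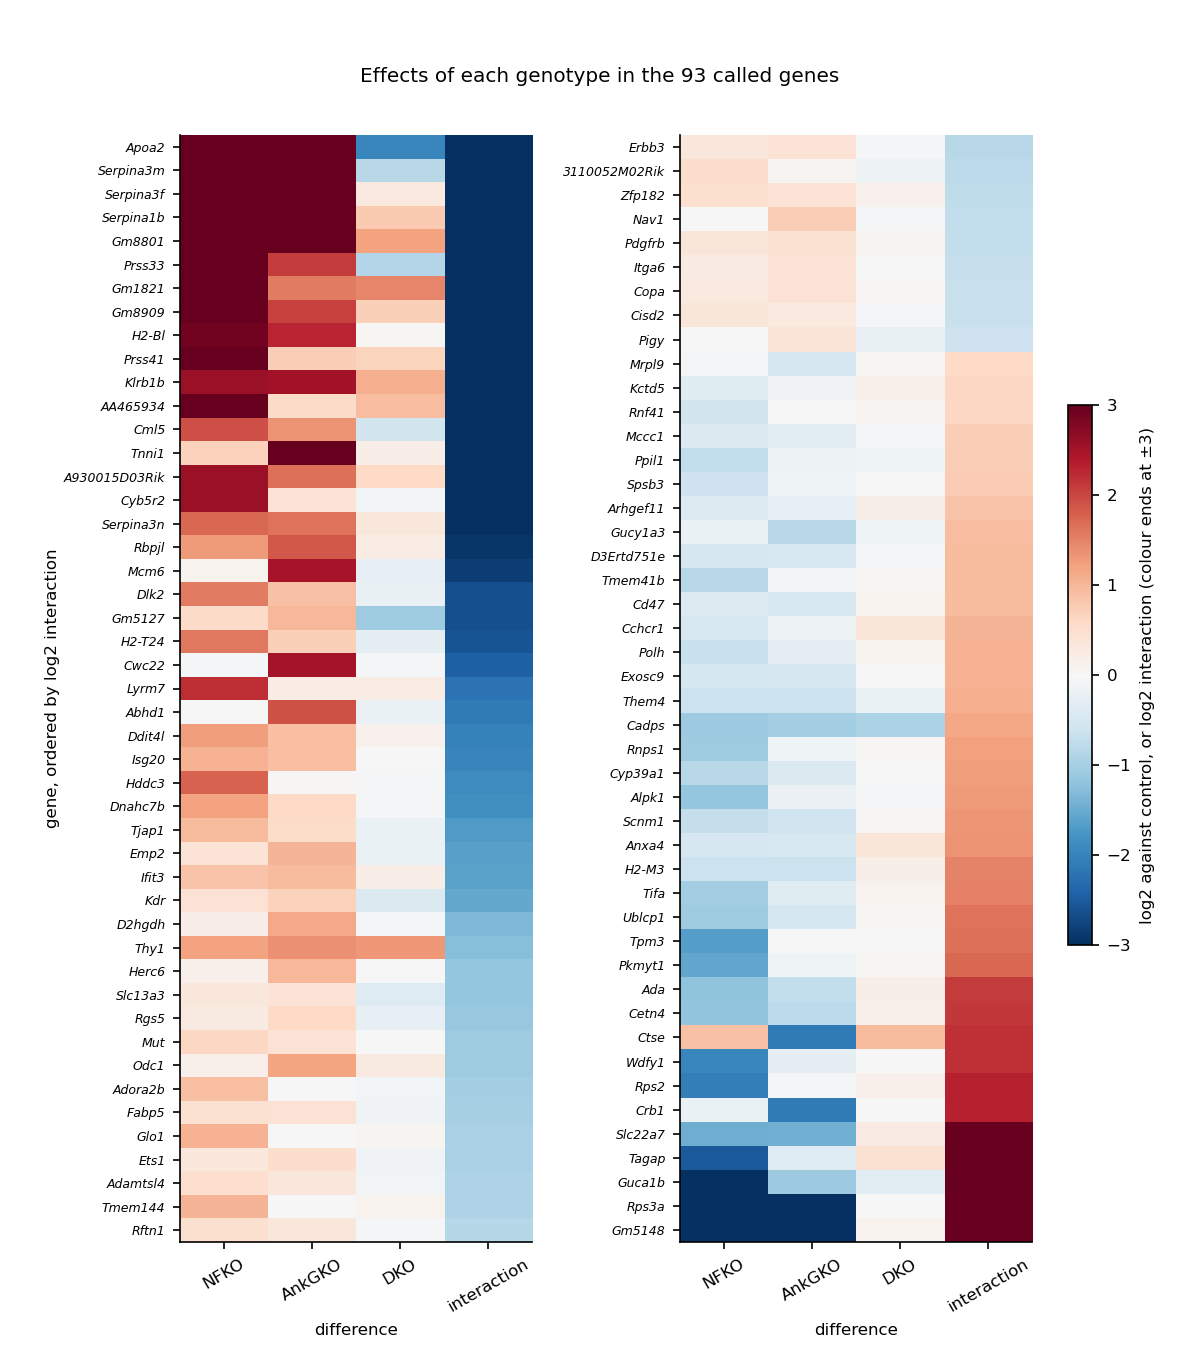
Log2 difference from control in NFKO, AnkGKO and DKO, and the log2 interaction (columns), for the 93 called genes (rows), ordered by interaction from the lowest at the upper left to the highest at the lower right. Colours end at 3 and -3 and stand for larger values beyond. The DKO column is pale for most genes, 78 of which lie within 0.6 of control.

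Some called genes were at or near 0 in several groups, and their levels are given in place of a fold change. Apoa2, an apolipoprotein of high-density lipoprotein, was at 0, 0.0201 and 0 CPM in control and at 0 in all 3 DKO libraries. It was at 0.325 to 0.424 CPM in NFKO and at 0.434 and 0.640 CPM in AnkGKO. A count of 0 in a library allows up to 0.0546 to 0.0780 CPM (3 counts, counting error only), and every single-knockout library was above that. Gm8801 was at 0 to 0.0238 CPM in control and at 0 to 0.0467 in DKO, against 0.261 to 0.725 in the single knockouts. Of its 50-base words 32.8% occur in another gene, as do 90.2% of those of Gm1821, a ubiquitin pseudogene at 49.5 to 55.0 CPM in NFKO and at most 3.83 CPM elsewhere. Serpina1b was the last gene inside the threshold (adjusted p = 0.0479) and Zfp760 the first outside (adjusted p = 0.0502, both from edgeR), the latter with a log2 interaction of -0.82. The calls of Gm1821 and Serpina1b were kept in 2 and 1 of the 11 fits without 1 library (adjusted p up to 0.248 and 0.261). Acadl and Galc passed by adjusted p but had absolute log2 values of 0.54 and 0.49, below the limit.

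Genes induced by interferon lay below 0 as a list. All 25 tested had an interaction below 0, against 48.6% of all genes tested, and 17 had an unadjusted p under 0.05 in that direction, against 5.63% of all genes. One of them, Ifit3, was called, and the list's median log2 interaction was -0.907 against 0.00865 over all genes tested. Their summed level was 199 to 212 CPM in control, 222 to 275 in NFKO, 243 to 269 in AnkGKO and 199 to 224 in DKO. The sums of the single knockouts were above those of control, and DKO overlapped control and the lower end of NFKO. Members were above control in 24 of 25 cases in NFKO, in 24 in AnkGKO and in 15 in DKO. The median stayed between -1.05 and -0.763 when single libraries were left out, and was -1 with Xist as a covariate. The list was chosen with earlier results of these data known, and its members share the same libraries. Its shares and median thus describe the list and do not test it.

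Ifit3, an interferon-induced antiviral protein, was at 4.71, 5.96 and 3.81 CPM in control and at 9.45, 8.99 and 7.82 CPM in NFKO. It was at 11.4 and 7.30 CPM in AnkGKO, and at 6.21, 5.44 and 5.02 CPM in DKO. The single knockouts were above all other libraries, and the log2 interaction was -1.61 (SE 0.29, adjusted p = 0.0275, edgeR). This call was lost without any 1 of 7 libraries (control 1 or 3, NFKO 1 or 2, AnkGKO 1, DKO 2 or 3; adjusted p up to 0.166), without control 1 and NFKO 1 together (0.172) and with Xist as a covariate (0.366), and 31.7% of its 50-base words occur in another gene. The next members by p-value were not called: Isg15, a ubiquitin-like modifier (log2 interaction -1.58, SE 0.32, adjusted p = 0.0635), Bst2, which tethers virions (-1.39, SE 0.29, adjusted p = 0.068), and Usp18, which removes Isg15 from proteins (-1.57, SE 0.35, adjusted p = 0.106, all from edgeR). Isg20, an exonuclease outside that list, was called at -1.97 (SE 0.33, adjusted p = 0.0179, edgeR), a call lost without control 1 or 3, AnkGKO 2 or DKO 3 (adjusted p up to 0.102).

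The interferon-stimulated response element, searched as GAAANNGAAA on both strands, was present in the 250 bases before the start of 9 of the 25 genes (36%) and of 3.32% of all 21770 protein-coding promoters. The 4 members with the smallest p-values all held it, and their promoters on GRCm39 are shown to let the repeated element be seen. They are chr19:34560649-34560898 (Ifit3, plus strand), chr4:156285304-156285553 (Isg15, minus strand), chr8:71990115-71990364 (Bst2, minus strand) and chr6:121222607-121222856 (Usp18, plus strand). Each is written 5′ to 3′ on the gene's strand, ending at the base before the start, with matches in capitals. A match here is a description of letters and not a bound site. The list was made of genes known to be induced by interferon, so its share of this element is no test of these libraries.
Ifit3: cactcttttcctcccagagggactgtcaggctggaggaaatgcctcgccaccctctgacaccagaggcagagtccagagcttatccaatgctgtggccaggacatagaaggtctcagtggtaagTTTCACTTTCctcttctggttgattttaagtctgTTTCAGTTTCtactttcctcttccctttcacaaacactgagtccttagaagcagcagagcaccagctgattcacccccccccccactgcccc
Isg15: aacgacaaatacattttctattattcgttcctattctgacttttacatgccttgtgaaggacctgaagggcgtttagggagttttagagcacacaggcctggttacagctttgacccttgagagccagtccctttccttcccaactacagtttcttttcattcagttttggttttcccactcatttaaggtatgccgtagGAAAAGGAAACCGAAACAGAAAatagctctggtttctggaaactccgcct
Bst2: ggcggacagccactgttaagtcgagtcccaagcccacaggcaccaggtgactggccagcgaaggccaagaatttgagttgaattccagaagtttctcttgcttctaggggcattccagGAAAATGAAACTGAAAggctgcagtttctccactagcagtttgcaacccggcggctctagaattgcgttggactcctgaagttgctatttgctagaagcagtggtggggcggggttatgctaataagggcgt
Usp18: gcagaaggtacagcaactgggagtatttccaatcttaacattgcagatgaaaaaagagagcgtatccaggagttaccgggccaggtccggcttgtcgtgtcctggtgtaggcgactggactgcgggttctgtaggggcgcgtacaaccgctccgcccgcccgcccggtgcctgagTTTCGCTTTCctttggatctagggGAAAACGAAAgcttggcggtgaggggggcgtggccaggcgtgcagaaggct
The closest match began 92 bases before the start in Ifit3, 38 in Isg15, 126 in Bst2 and 51 in Usp18, and the matches overlap one another in Isg15 and in Bst2.

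The Serpina3 promoters held no such element in the same window, in any of the 6 with an annotated protein-coding start. A STAT element, TTCNNNGAA, which reads the same on both strands, was found in 3 of these 6 (Serpina3f, Serpina3g and Serpina3i) and in 7.7% of all protein-coding promoters. Of the 3 called Serpina3 genes, Serpina3f alone held it, and its promoter at chr12:104180522-104180771 (plus strand, GRCm39) is set beside that of Serpina3n at chr12:104372560-104372809, with the match in capitals.
Serpina3f: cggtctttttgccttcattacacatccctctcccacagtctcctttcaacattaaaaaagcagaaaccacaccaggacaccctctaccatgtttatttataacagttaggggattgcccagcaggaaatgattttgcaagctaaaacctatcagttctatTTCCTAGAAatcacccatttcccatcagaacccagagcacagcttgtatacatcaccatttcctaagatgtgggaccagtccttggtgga
Serpina3n: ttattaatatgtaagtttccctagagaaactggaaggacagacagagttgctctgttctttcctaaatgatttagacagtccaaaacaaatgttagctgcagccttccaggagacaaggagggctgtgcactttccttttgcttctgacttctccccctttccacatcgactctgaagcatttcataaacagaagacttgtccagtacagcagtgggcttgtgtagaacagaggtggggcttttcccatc
Both genes were high in the single knockouts and lower in DKO, while the STAT letters were in only 1 of these 2 windows.

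Markers of vessels also lay below 0. Of 16 genes of endothelium and barrier tested, 14 were below 0 (48.6% of all genes were) and 3 were called (0.530% of all genes were), Rgs5, Kdr and Pdgfrb, with a list median of -0.257. Rgs5, a pericyte regulator of G protein signalling, was at 38, 39.1 and 38.1 CPM in control and at 50.8, 48.7 and 40.2 CPM in NFKO. It was at 54.3 and 62.3 CPM in AnkGKO, and at 28.1, 35.3 and 33.0 CPM in DKO. DKO was below every other library and the single knockouts above control, with a log2 interaction of -1.14 (SE 0.15, adjusted p = 0.00457, edgeR). With Xist as a covariate the calls of Rgs5, Kdr and Pdgfrb were lost (adjusted p = 0.292, 0.225 and 0.618). Kdr, a receptor for vascular endothelial growth factor, had one of -1.54 (SE 0.25), and the call was lost in 5 of 11 fits without 1 library (control 1 or 3, AnkGKO 2, DKO 1 or 3; adjusted p up to 0.0829). Pdgfrb, the pericyte receptor for platelet-derived growth factor, had one of -0.73 (SE 0.13), kept in only 1 of those 11 fits (adjusted p up to 0.164). Cldn5, the tight junction protein of the endothelium, was not called (-0.29, adjusted p = 0.799, edgeR).

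Meningeal fibroblast genes were all below 0, 16 of 16, with a median of -1.52 and none called (3 at an unadjusted p under 0.05 by edgeR and none above 0). Their summed level was 1850 to 3910 CPM in NFKO, against 834 to 2100 in control, 921 to 1910 in AnkGKO and 943 to 2000 in DKO. NFKO reached the highest sums but overlapped every other group, and without AnkGKO replicate 1 the list median was -0.228. Igfbp2 (log2 interaction -1.70, SE 0.36, adjusted p = 0.114, edgeR) had the smallest p-value in the list. Their part in the vessel and interferon values was not tested. Peripheral myelin and Schwann cell genes had a median of -0.941 (8 of 10 below 0, none called), which was 0.0539 without AnkGKO replicate 1. Skeletal muscle genes lay above 0 in 13 of 13 with a median of 2.46 and none called, but the median was -1.85 without DKO replicate 2, where they summed to 364 CPM against 94.0 and 108 CPM in the other DKO libraries.

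Microglial genes lay below 0 more often than above it. Of 26 homeostatic microglia genes 19 were below 0 (median -0.213), and of 26 activated microglia genes 20 (median -0.346), with none called in either list and 8 and 9 at an unadjusted p under 0.05 below 0 by edgeR (2 and 1 above 0, against 4.69% of all genes above 0). Clec7a, a pattern receptor of activated microglia, was at 1.48 to 2.56 CPM in control, 2.38 to 3.08 in NFKO, 4.32 and 7.26 in AnkGKO and 2.89 to 3.46 in DKO (log2 interaction -1.41, SE 0.37, adjusted p = 0.168, edgeR). Fcgr3, an immunoglobulin receptor, had one of -0.91 (SE 0.22, adjusted p = 0.125, edgeR), and Axl, a receptor for dying cells, one of -0.33 (SE 0.08, adjusted p = 0.124, edgeR). In Clec7a the DKO libraries were above the controls (adjusted p = 0.576) and below both AnkGKO libraries. Fcrls lay the other way (3.23, SE 0.66, adjusted p = 0.111, edgeR). With single libraries left out the homeostatic median ran from -0.344 to -0.0828 and the activated one from -0.646 to -0.239. With Xist as a covariate they were -0.649 and -1.05. Among 29 astrocyte reactivity genes the 3 called were those of the Serpina3 cluster, and the list median was -0.0134. Among 21 genes of MHC and antigen presentation H2-Bl and H2-M3 were called, in opposite directions (median -0.325, and 0.0197 without AnkGKO replicate 1).

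**Figure D4:**
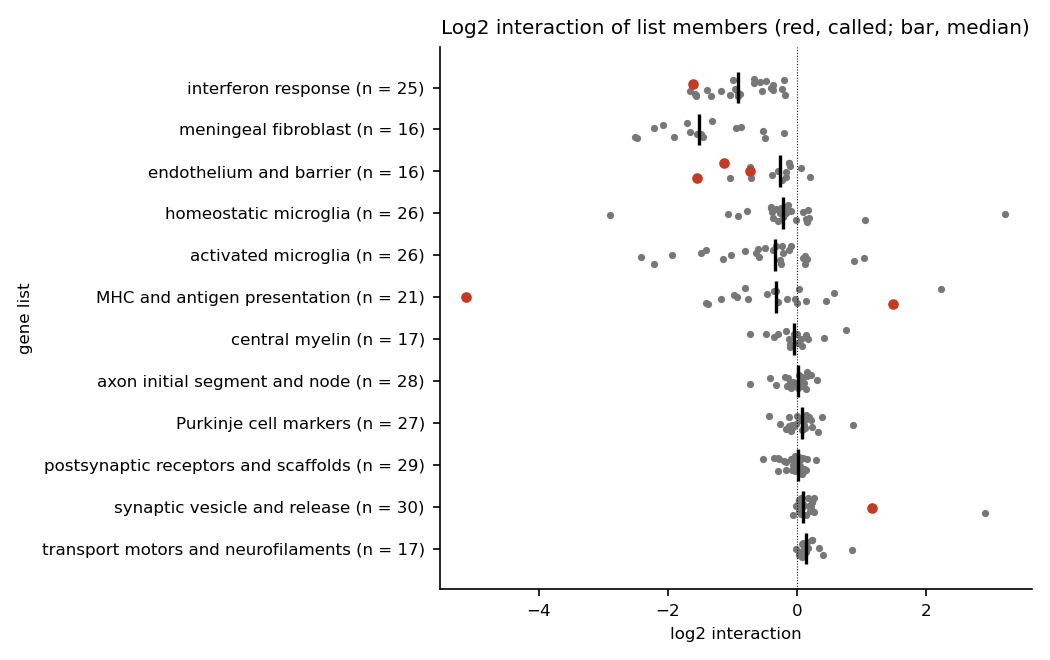
Log2 interaction (x axis) of each tested member of 12 gene lists (y axis), with called genes in red and a bar at each list's median. The interferon and meningeal fibroblast lists lie wholly below 0, and the medians of the neuronal lists lie close to 0.

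Neuronal lists had medians near 0. None of 28 genes of the AIS and node was called (median 0.0125, range -0.726 to 0.316). At an unadjusted p under 0.05 from edgeR 2 were below 0 and 1 above. Trim46, which bundles microtubules in the proximal axon, had a log2 interaction of 0.21 (SE 0.09, adjusted p = 0.428, edgeR) against a median SE of 0.139 over the list. None of 27 Purkinje cell markers was called (median 0.0764, and none at an unadjusted p under 0.05 by edgeR), with a median SE of 0.421. Granule cell markers had a median of 0.182 over 14 genes with none called. With single libraries left out this median ran from -0.377 to 0.582, and that of the Purkinje cell markers from -0.119 to 0.298. With Xist as a covariate they were -1.14 and -0.407. Postsynaptic receptors and scaffolds (29 genes, median 0.016) and ion channels, pumps and exchangers (22 genes, median 0.0413) had none called. Shank3, a postsynaptic scaffold, was at 88.6 to 108 CPM in control, 88.2 to 107 in NFKO, 83.7 and 86.7 in AnkGKO and 67.2 to 75.2 in DKO, with a log2 interaction of -0.30 (SE 0.13, adjusted p = 0.469, edgeR).

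Synaptic vesicle and release genes were above 0 in 27 of 30, with a median of 0.0919 and a highest value of 2.92. Cadps alone was called. Transport motors and neurofilaments were above 0 in 16 of 17 (median 0.142, none called), and their median was -0.00562 without AnkGKO replicate 1. Rab3a, a vesicle GTPase, had a log2 interaction of 0.27 (SE 0.10, adjusted p = 0.384, edgeR) and Kif3a, a kinesin motor, one of 0.23 (SE 0.09, adjusted p = 0.425, edgeR). Neither passed the test. In the immunoglobulin superfamily of adhesion molecules, which includes Nfasc, only Thy1 of 21 was called (median -0.0638). Of the remaining lists, central myelin (17 genes, median -0.0449), cholesterol biosynthesis (20, -0.114), the integrated stress response (18, -0.0621), axonal injury and regeneration (18, -0.0371), immediate early genes (15, -0.317), motile cilium (14, -0.348), cholinergic motor neuron genes (15, 0.234), choroid plexus (10, -0.0204), blood cells (6, 0.818) and caudal Hox genes (17, -0.0723) held no called gene. With single libraries left out the blood cell median ran from -1.27 to 1.33, and with Xist as a covariate it was -3.07. None of 38 genes named in the text of the study's RNA-seq results was called, and their median was -0.00135.

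The called genes were unevenly placed in the genome (GRCm39). One label gives a mixed strain background, so inherited strain differences between the groups cannot be told apart from the interaction, and their part was not tested. Of the 91 with a position, 24 lay on chromosome 17 (2.93% of 820 tested there), 19 on chromosome 3 (2.25% of 846) and 11 on chromosome 1 (1.06% of 1042). These 3 chromosomes held 54 called genes (1.99% of those tested), against 39 elsewhere or without a position (0.263%). On chromosome 17 they spanned chr17:8144790-50497712, which includes the MHC, Rnps1, Rps2, Pkmyt1, Glo1, Mut and Dlk2. Against control, 22 genes of chromosome 17 were called in NFKO and none in AnkGKO (background 0.365% and 0.165% of all genes tested), while chromosome 1 had 6 and 9. Within 20 Mb of Nfasc 5 of 181 genes tested were called (2.76%), and within 20 Mb of Ank3 none of 378. At an unadjusted p the share over all genes was 10.3% (1813 genes under 0.05, edgeR).

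**Figure D5:**
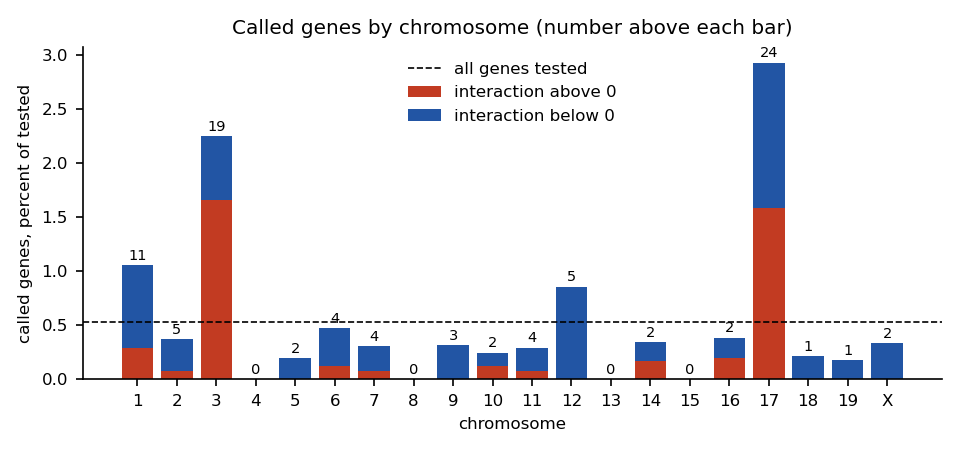
Percent of tested genes called in the interaction (y axis) on each chromosome (x axis, those with at least 50 genes tested), in red for an interaction above 0 and in blue below 0, with the number called above each bar. The dashed line is the 0.530% over all genes tested. Chromosomes 17 (24 genes), 3 (19), 1 (11) and 12 (5) stand above it.

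Interaction values are less precise than simple differences, since 4 group means enter. The median SE of the log2 interaction was 0.184, against 0.123 for NFKO, 0.137 for AnkGKO and 0.123 for DKO against control. In 7 genes NFKO against control and DKO against AnkGKO were called with opposite signs, namely Serpina3n, Rps3a, H2-Bl, Gm5148, Dlk2, Serpina3f and Apoa2. In Serpina3n, for example, the log2 difference was 1.71 in NFKO against control (adjusted p = 0.000137) and -1.30 in DKO against AnkGKO (adjusted p = 0.00512, both from edgeR). The tests of these differences share libraries with each other and with the interaction, so they are given side by side and not as separate evidence.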

How the data were processed

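RNA from cerebellar hemispheres of 11 mice was sequenced by the authors from poly(A) strand-specific libraries. The submitters' notes name FastQC 0.12.1, Trimmomatic 0.39, STAR 2.7.11a, R 4.3.2 and DESeq2 1.40.2, with GRCm39. Reads were single-end 100 bp by the labels and paired-end by the study's methods. The authors deposited raw counts per gene for each library, and a table of normalized values that was not used here. The 5 summary rows of the count table, 42.7 to 43.8% of reads, were dropped before library sizes were set. Intervals and floors cover counting error only.

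Genes with at least 10 counts in total were fitted over all 11 libraries with edgeR 4.0.16 (R 4.3.3; TMM, robust quasi-likelihood), with 1 mean per genotype. The interaction was a contrast of the 4 means. The labels call replicates biological, and AnkGKO had 2. Alternatives used DESeq2 1.42.0, limma 3.58.1, other filters, scalings and covariates, a replicate block and left-out libraries. Named genes were the 12 smallest p-values in each direction, called list members, the up to 3 smallest p-values of each list, and the targeted genes. Others (among them Cd47, Gucy1a3, Rps2, Crb1, Mcm6, Hddc3, Gm1821, Isg20 and Shank3) were chosen after their values were seen. The gene members and lists were chosen with earlier results of these data known. Positions and promoters came from the GENCODE annotation of GRCm39, matched by symbol. Genes with shared 50-base words may share reads with copies. The values of 1 gene are not reported here.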

Additional observations from a re-analysis of the deposited data

Results flagged for a closer look

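Of the genes tested, 93 differed in the effect of one knockout with and without the other, by the interaction term in edgeR. For 7 of these NFKO against control and DKO against AnkGKO were called with opposite signs. Among the 12 smallest p-values above 0, the log2 interaction was 10.1 for Rps3a, 11.1 for Gm5148, 2.2 for Wdfy1, 1.73 for Pkmyt1, 1.66 for Tpm3, 1.51 for Tifa, 1.33 for Scnm1, 1.28 for Alpk1, 1.24 for Cyp39a1, 1.23 for Rnps1, 1.16 for Cadps and 1.05 for Exosc9. Among the 12 below 0 it was -12.9 for Apoa2, -10.6 for Serpina3f, -9.64 for Gm8801, -5.12 for H2-Bl, -3.11 for Cyb5r2, -3.01 for Serpina3n, -2.64 for Dlk2, -2.46 for Cwc22, -2.21 for Lyrm7, -1.27 for Thy1, -1.08 for Mut and -0.969 for Glo1. The values of Apoa2, Gm8801, Serpina3f and Gm5148 depend on the prior count, since a group lies near 0. Groups of 2 or 3 libraries are too small for a search for outlying libraries.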

How the results depend on the processing

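All 93 calls kept their direction in every alternative in which they were tested, while their number varied. DESeq2 with a local fit called 318 genes (115 above 0 and 203 below), all 93 among them. With Xist as a covariate 19 were called (8 and 11), and without control 1 and NFKO 1 together 42 (21 and 21). Leaving out 1 library gave 54 to 103 calls, 24 to 37 above 0 and 30 to 68 below; the lowest count was without AnkGKO replicate 1 and the highest without DKO replicate 2. Of the 93, 39 were called whichever single library was left out, and 13 in all 21 alternatives on the log2 scale: Cadps, Cd47, Crb1, Cwc22, Dlk2, Gm5148, H2-Bl, Mut, Rnps1, Rps3a, Serpina3n, Tifa and Tpm3. On the linear CPM scale 83 genes were called, 60 of them among the 93. The replicate block called 75 genes (69 of the 93), without Ctse, Isg20 and Pdgfrb among others (adjusted p = 0.051, 0.0551 and 0.0551). Correlations of same-numbered libraries ran from -0.276 to 0.363, with 6 of 15 pairs over 0.1. All 3 pairs of control and NFKO were over it (0.175 to 0.363) and no pair with AnkGKO was, so the numbers were not taken to pair the libraries across the design. As a hint from the data, 8 of 11 libraries correlated best with their own number.

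Signs turned only in genes that were not called. With Xist as a covariate the log2 interaction was -0.02043 for Aldoc, -1.774 for Barhl2, 0.01384 for Hoxa6, -1.627 for Camp and 0.2083 for Egr1. With single libraries left out it ran from -0.32 to 0.03677 for Ank3, -0.07409 to 3.353 for Barhl2, -6.598 to 6.81 for Myh4, -0.7375 to 7.123 for Tnnc2, -1.848 to 5.923 for Tnnt3 and -1.409 to 3.182 for Camp. On the linear CPM scale, in CPM, it was -3.916 for Tnnc2 and -6.346 for Tnnt3. The cause was not tested. AnkGKO, with 2 libraries, limits the precision, and when one is left out the lone library is assumed to vary like the other groups.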
